A study of Homo sapiens with 8 samples.

Results

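Stem and progenitor markers are genes used to recognise cells with self-renewing or undifferentiated properties. The 10 examined here were *SOX9*, *SOX2*, *MSI2*, *BMI1*, *NES*, *CD44*, *CD24*, *PROM1*, *ALDH1A1* and *ALDH1A3*. They were picked by name rather than by a threshold on the measured values, and were found through their NCBI gene numbers among the 25702 gene numbers that every library lists. All 10 were present, and 9 of them were among the 14333 genes that passed the filter on low counts. *ALDH1A1* did not pass.

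The values came from bulk RNA-seq of SUIT2, an established human pancreatic ductal adenocarcinoma (PDA) cell line. The cells carried a lentiviral pLKO.1 vector with a puromycin resistance gene and a short hairpin RNA, and all groups were selected with puromycin. The hairpin was a scramble sequence in 4 libraries (shScr), *EN1* construct #1 in 2 libraries (shEN1 #1) and *EN1* construct #2 in 2 libraries (shEN1 #2). All groups share 1 cell line, so a value here describes that line. In bulk RNA, fewer expressing cells and less RNA per cell cannot be told apart. The libraries held between 33423590 and 37810604 counts, and levels are given as CPM, which are counts scaled by the TMM-normalized library size to a common depth.

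*EN1* encodes a homeobox transcription factor, and its transcript was measured first because the hairpins target it. Under the label shScr, *EN1* lay between 2.51 and 4.94 CPM, and under the label shEN1 between 1.35 and 6.70 CPM, with 4 libraries each. The ranges overlapped through shEN1 #2 replicate 1 at 1.35 CPM, as the other 3 libraries labelled shEN1 (5.41 to 6.70 CPM) lay above every shScr library. The difference shEN1 minus shScr came to 0.26 on the log2 scale (SE 0.43, edgeR adjusted p = 1.00). It was 0.57 without shEN1 #2 replicate 1, 0.057 without shEN1 #2 replicate 2, 0.089 without shScr replicate 4 and 0.40 without the libraries shScr replicate 4 and shEN1 #2 replicate 1. The targeted transcript was therefore not shown to be lower under the label shEN1, and its difference was smaller than the standard error. The paper measured *EN1* by RT-qPCR in SUIT2 with *EN1* shRNAs, and those values were not examined here. It also reported differentially expressed genes from RNA-seq of SUIT2 after *EN1* knockdown, whereas edgeR called none below after adjustment. The reason for that difference was not tested. Every direction below is a direction between labels. Epithelial markers were detected in the line, as was the mesenchymal filament gene *VIM* (575 to 2482 CPM). All 6 epithelial markers listed, keratins among them, passed the filter, against 4 of 16 markers of other cell types. Of these 4, the lysosomal *CD68* reached 34.6 CPM and the smooth muscle actin *ACTA2* 15.5 CPM, and 6 of the 16 (*PTPRC*, *CD3E*, *CDH5*, *COL3A1*, *CPA1* and *INS*) were at 0 counts in every library. The summed level of the 16 markers lay between 25.8 and 37.4 CPM under shScr and between 22.03 and 41.7 CPM under shEN1.

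Over the tested genes, a pair of libraries with different labels stood apart from the other 6. These were shScr replicate 4 and shEN1 #2 replicate 1. They were both the highest 2 or both the lowest 2 libraries for 5458 of the 14333 tested genes (38.1%). *KRT7*, a ductal keratin, was 198 and 192 CPM in that pair against 533 to 1080 CPM in the other 6. Not every keratin was lowest there, since *KRT8* was 6486 and 6367 CPM in the pair and 6094 to 9573 CPM elsewhere. *VIM*, the mesenchymal filament protein vimentin, was 2241 and 2482 CPM in the pair and 575 to 1917 CPM elsewhere. Another pair across the labels, shScr replicate 3 and shEN1 #1 replicate 1, were each other's nearest libraries over all tested genes. They were both the highest 2 or both the lowest 2 for 1989 genes (13.9%). Neither trait was particular to them. shScr replicate 2 and shEN1 #2 replicate 2 were also each other's nearest, at 0.488 against 0.512 log2 units. shScr replicate 2 and shEN1 #1 replicate 1 were both highest or both lowest for 2047 genes (14.3%). The label comparison of the markers is given with and without the pair that stood apart. It is also given without shScr replicate 3 and shEN1 #1 replicate 1.

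The markers act at different levels of the cell. SOX9 and SOX2 are DNA-binding factors of the SRY-box family, and SOX9 is kept in the duct and centroacinar cells of the adult pancreas. MSI2 binds RNA and controls translation, and BMI1 is a subunit of the chromatin-repressing Polycomb complex PRC1. Nestin (*NES*) is an intermediate filament protein of neural and other progenitors. CD44 is the receptor for the matrix sugar hyaluronan, CD24 is a small glycolipid-anchored sialoprotein, and PROM1 (CD133) is a pentaspan protein of membrane protrusions. These surface proteins have been used to sort tumour-initiating cells from PDA. ALDH1A1 and ALDH1A3 oxidise retinaldehyde to retinoic acid and are the enzymes usually credited with the aldehyde dehydrogenase activity that marks such cells.

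Per length of transcript, *CD44* and *ALDH1A3* had the highest levels of the markers and *SOX2* and *ALDH1A1* the lowest. The 250 bases before the RefSeq start of these 4 genes are shown to set both ends of that order side by side. For *CD44*, *ALDH1A3* and *ALDH1A1* this start and its window lie inside the gene span given below, which comes from another annotation. Only the *SOX2* window lies directly before its span. The sequences are from RefSeq on GRCh38.p14, read on the strand of the gene, and each was found by exact match at 1 place in GRCh37: *CD44* at chr11:35160468-35160717 on the plus strand, *ALDH1A3* at chr15:101419786-101420035 on the plus strand, *SOX2* at chr3:181429463-181429712 on the plus strand and *ALDH1A1* at chr9:75567970-75568219 on the minus strand. Capitals mark the letters of TAATTG or CCAAT on either strand.
CD44: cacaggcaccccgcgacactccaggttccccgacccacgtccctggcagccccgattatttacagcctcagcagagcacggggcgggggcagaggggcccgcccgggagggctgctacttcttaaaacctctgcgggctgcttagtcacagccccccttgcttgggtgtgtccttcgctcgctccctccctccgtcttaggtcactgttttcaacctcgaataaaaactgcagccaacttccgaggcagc
ALDH1A3: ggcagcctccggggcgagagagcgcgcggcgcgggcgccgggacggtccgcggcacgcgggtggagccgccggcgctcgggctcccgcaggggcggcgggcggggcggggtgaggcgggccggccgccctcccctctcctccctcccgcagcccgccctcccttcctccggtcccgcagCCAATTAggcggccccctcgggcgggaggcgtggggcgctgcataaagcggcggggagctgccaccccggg
SOX2: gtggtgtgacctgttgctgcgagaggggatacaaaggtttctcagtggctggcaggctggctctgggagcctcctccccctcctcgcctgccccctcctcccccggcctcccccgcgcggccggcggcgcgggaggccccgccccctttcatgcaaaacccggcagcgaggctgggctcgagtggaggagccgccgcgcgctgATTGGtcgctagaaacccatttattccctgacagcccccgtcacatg
ALDH1A1: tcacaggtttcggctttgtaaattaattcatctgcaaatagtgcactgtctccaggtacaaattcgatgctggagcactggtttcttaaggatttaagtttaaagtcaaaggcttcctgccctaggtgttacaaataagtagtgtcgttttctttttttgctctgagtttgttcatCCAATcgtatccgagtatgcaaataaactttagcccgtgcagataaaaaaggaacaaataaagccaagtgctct

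The *ALDH1A3* window was 82.4% G and C with 38 CpG dinucleotides, and that of *ALDH1A1* was 38.4% G and C with 6. The *SOX2* and *CD44* windows were 68.8% and 62.4%, and the median of all 35116 windows was 58% with 11 CpG. The motifs searched on both strands were TAATTA and TAATTG, the core letters that homeodomain proteins bind, and also CCAAT and TATAAA. For 9 of the 10 markers 16 windows were found, since some genes have several starts. In these windows TAATTA and TATAAA were not found, TAATTG was found in 1 of 16 (6.25%), that of *ALDH1A3*, and CCAAT in 6 of 16 (37.5%). Of all windows, 4.35% held TAATTA, 6.70% TAATTG, 32.01% CCAAT and 10.7% TATAAA. In the *ALDH1A3* window the CCAAT and TAATTG letters overlap. These matches describe letters and not binding.

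*SOX9* lies on chromosome 17 of GRCh37 from 70117161 to 70122557 on the plus strand, and its canonical transcript has 3 exons. Its level was 69.99, 56.7, 45.8 and 32.8 CPM in shScr replicates 1 to 4. It was 48.6 and 69.4 CPM in shEN1 #1 and 38.9 and 61.6 CPM in shEN1 #2. The highest library and the lowest library were both labelled shScr, and the ranges of the labels overlapped. *SOX9-AS1*, the antisense gene across it, had between 0 and 2 counts.

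*SOX2*, a single-exon gene on chromosome 3 (181429713 to 181432224, plus strand), was near the lower end of detection. It had 13, 12, 55 and 125 counts in shScr replicates 1 to 4, or 0.392, 0.324, 1.58 and 3.34 CPM. The shEN1 #1 libraries had 47 and 47 counts (1.32 and 1.38 CPM) and the shEN1 #2 libraries 143 and 20 (3.63 and 0.615 CPM). The libraries of the pair that stood apart were the highest under each label. *SOX2* lies inside the long noncoding gene *SOX2-OT*, which had 0 counts in all 8 libraries.

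*MSI2*, on chromosome 17 from 55333212 to 55762050 on the plus strand, was 9.28, 13.9, 17.02 and 15.6 CPM in shScr replicates 1 to 4. It was 13.0 and 14.6 CPM in shEN1 #1 and 13.1 and 12.1 CPM in shEN1 #2, all inside the shScr range. *BMI1*, on chromosome 10 from 22610028 to 22620413 on the plus strand, was the steadiest marker. Its level was 79.2, 76.9, 63.4 and 60.6 CPM under shScr, 80.3 and 67.5 CPM in shEN1 #1 and 69.6 and 71.8 CPM in shEN1 #2. The neighbouring gene *COMMD3*, with which *BMI1* shares an annotated readthrough transcript, had 586 to 940 counts against 2211 to 2866 for *BMI1*. Reads of the readthrough could fall to either gene.

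*NES*, on chromosome 1 from 156638555 to 156647199 on the minus strand, was 10.003, 9.79, 19.1 and 9.26 CPM in shScr replicates 1 to 4. It was 18.5 and 9.06 CPM in shEN1 #1 and 9.37 and 11.1 CPM in shEN1 #2. A single library under each label, shScr replicate 3 and shEN1 #1 replicate 1, held a level far above the other 6.

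*CD44*, on chromosome 11 from 35160429 to 35253949 on the plus strand, had the most counts of the markers, from 21912 to 37087. It was 1012, 997, 924 and 585 CPM under shScr, 1039 and 934 CPM in shEN1 #1 and 635 and 895 CPM in shEN1 #2. The pair that stood apart was lowest. Counts are for the whole gene, whose canonical transcript has 18 exons, so the standard and variant isoforms of *CD44* were not separated.

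*CD24* was 115, 289, 424 and 46.6 CPM in shScr replicates 1 to 4, 265 and 92.6 CPM in shEN1 #1 and 38.9 and 226 CPM in shEN1 #2. The same pair was lowest, and shScr replicate 3 was highest. No position is given for *CD24*: the GRCh37 annotation used here does not name the gene and none of its RefSeq promoter windows was found in that build by exact match. Where its reads were counted was not tested, and its level against other genes is uncertain.

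*PROM1*, on chromosome 4 from 15964699 to 16086001 on the minus strand, was 23.1, 22.2, 27.8 and 7.53 CPM under shScr. It was 39.3 and 25.98 CPM in shEN1 #1 and 9.60 and 17.3 CPM in shEN1 #2. The pair that stood apart was lowest and shEN1 #1 replicate 1 highest. Both shEN1 #2 libraries were below both shEN1 #1 libraries, and how many of the tested genes separate the constructs in this way is not given here.

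The enzymes differed most in level. *ALDH1A3*, on chromosome 15 from 101417919 to 101456831 on the plus strand, was 392, 530, 506 and 335 CPM under shScr, 364 and 386 CPM in shEN1 #1 and 282 and 545 CPM in shEN1 #2. *ALDH1A1*, on chromosome 9 from 75515587 to 75695358 on the minus strand, had 4, 6, 4 and 2 counts in shScr replicates 1 to 4, at most 0.162 CPM. It had 0 counts in both shEN1 #1 libraries and in shEN1 #2 replicate 2, and 8 counts (0.203 CPM) in shEN1 #2 replicate 1. A count of 0 allows up to 3 counts, which is 0.0840 to 0.0922 CPM in these 3 libraries by counting error. That bound treats counts as independent and would be higher if the mates of a read pair were counted separately. The exact two-sided permutation test of the *ALDH1A1* CPM gave p = 0.314 with n = 4 against 4, where the smallest p possible is 0.0286.

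**Figure D1:**
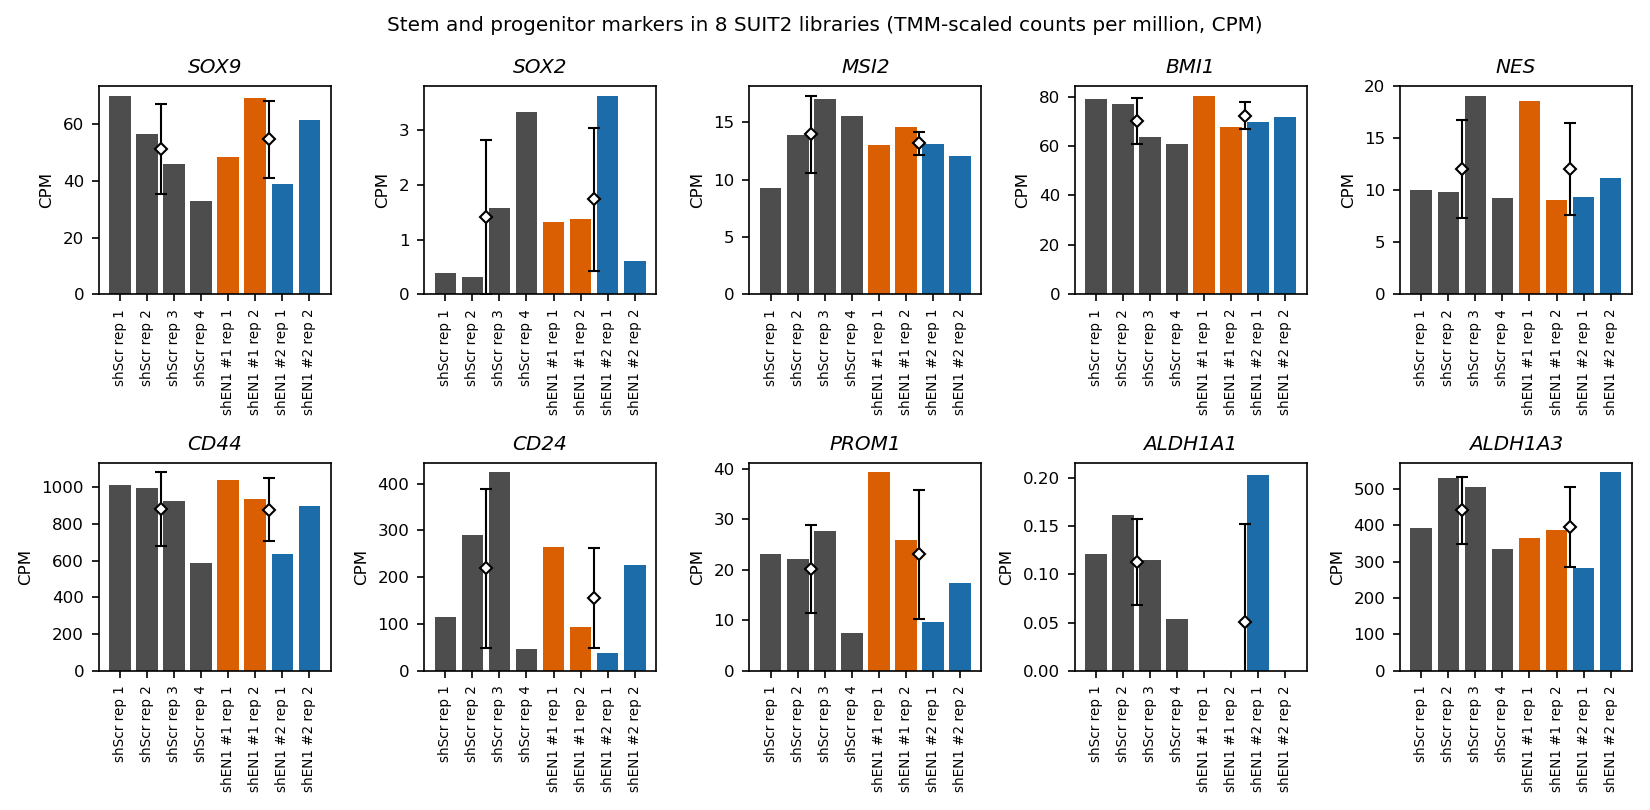
CPM of the 10 markers (y axis, linear from 0, own scale per panel) in each library (x axis, bars), with the mean and SD of the 4 shScr and of the 4 shEN1 libraries as diamonds with error bars. The bars of shScr replicate 4 and shEN1 #2 replicate 1 are the lowest 2 for *SOX9*, *CD44*, *CD24*, *PROM1* and *ALDH1A3* and the highest 2 for *SOX2*.

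Levels were compared between markers as CPM per kilobase of canonical transcript, for the 9 with a transcript in the annotation. *CD44* had a median of 171 and a range of 108 to 191 CPM per kilobase over the 8 libraries, and *ALDH1A3* a median of 112 (81.4 to 157). Their ranges overlapped. *BMI1* followed at a median of 19.98 CPM per kilobase, with a highest library of 22.7, below the lowest library of *ALDH1A3*. *SOX9* (median 13.4), *PROM1* (5.64), *MSI2* (2.12) and *NES* (1.78) each overlapped its neighbour in this order. *SOX2* at a median of 0.537 CPM per kilobase (0.129 to 1.45) lay below the lowest library of *NES* (1.63). *ALDH1A1* (median 0.0401, highest 0.0970) lay below the lowest library of *SOX2*.

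**Figure D2:**
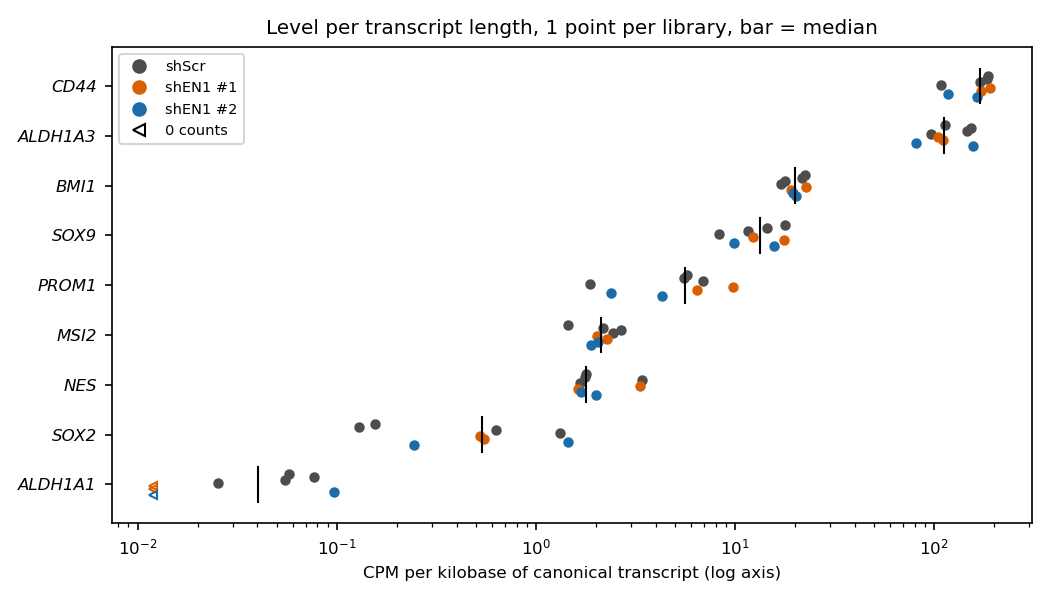
Level of 9 markers in CPM per kilobase of canonical transcript (x axis, log scale), with 1 point per library coloured by group, a bar at the median and open triangles for libraries at 0 counts. *CD44* and *ALDH1A3* lie above the other 7 in all 8 libraries, and *SOX2* and *ALDH1A1* lie below.

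Within families the markers differed from their paralogs in level per length. The ratio of *ALDH1A3* to *ALDH1A1* was 840 to 2661 in the 4 libraries with more than 3 *ALDH1A1* counts and at least 2617 to at least 3572 in the 3 with 0, where 3 counts were taken per library. *MSI2* was 21.7 to 68.8 times *MSI1* in the 3 libraries that detected *MSI1*, and at least 47.6 times in the other 5. Ratios given as at least would be smaller if the mates of a read pair were counted separately. *PROM1* was 5.14 to 29.6 times *PROM2*. *SOX9* was 6.28 to 114 times *SOX2*. *ALDH1A3* was 8.23 to 12.7 times *ALDH2*, the mitochondrial acetaldehyde enzyme. That ratio depends on the canonical lengths of 3469 bases for *ALDH1A3* and 9561 for *ALDH2*. In counts, shScr replicate 1 had 13012 for *ALDH1A3* and 4012 for *ALDH2*. *BMI1* was 2.92 to 3.81 times *PCGF2*, its closest paralog in PRC1.

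The comparison of the labels asked whether these markers differ after expression of *EN1* hairpins. After adjustment in edgeR, 0 of the 9 tested markers passed the 0.05 threshold, as did 0 of the 14333 genes (0.0%). Without adjustment 44 genes passed it (0.307%), again with 0 of the 9 markers (1, *SOX2*, with the replicate number as a block), and DESeq2 called 2 genes after adjustment with no marker among them. The CPM ranges of shEN1 and shScr did not overlap for 60 genes (0.419%) and overlapped for all 9 markers. Of the 9, 4 had a positive and 5 a negative log2 fold change, with a median of -9.2e-05 against -0.0028 over all tested genes.

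The largest differences belonged to the most variable markers. *CD24* was 219 ± 171 CPM (SD, n = 4) under shScr and 156 ± 107 CPM (SD, n = 4) under shEN1, a log2 fold change of -0.49 with a standard error of 0.72. *SOX2* was 1.41 ± 1.41 CPM under shScr and 1.74 ± 1.31 CPM under shEN1 (log2 fold change 0.30, standard error 0.77). For *PROM1* the log2 fold change was 0.19 (standard error 0.47), for *ALDH1A3* -0.16 (0.21) and for *SOX9* 0.09 (0.24). *MSI2* (-0.08, standard error 0.19), *BMI1* (0.05, 0.12), *CD44* (-0.0064, 0.20) and *NES* (-9.2e-05, 0.30) lay closest to 0. The adjusted p was 1.00 for each of the 9 in edgeR's test. These standard errors leave room for differences that the test could not call. On counts simulated gene by gene with this spread, it recovered 95 of 200 genes changed 2-fold, over 14134 genes, with 9 false calls. The simulation held no pairs of libraries that shift together. The 200 were drawn at random, so the recovery does not describe *CD24* or *SOX2*, whose standard errors exceed the median of 0.19 over all tested genes.

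For all 9 tested markers the means of the labels lay closer together than the highest and lowest library within either label, as for 97.7% of tested genes. *CD24*, with the largest ratio of label means at 1.40, spanned 9.08-fold within shScr and 6.81-fold within shEN1. With shScr replicate 4 and shEN1 #2 replicate 1 both left out, 0 of 9 markers were called and their median log2 fold change was -0.0078. With shScr replicate 3 and shEN1 #1 replicate 1 left out, 0 of 9 were called as well. When single libraries were left out in turn, the sign changed for 8 of the 9 markers. *ALDH1A3* was the exception and stayed negative, from -0.36 to -0.034. *SOX2* ranged from -0.35 without shEN1 #2 replicate 1 to 1.19 without shScr replicate 4.

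**Figure D3:**
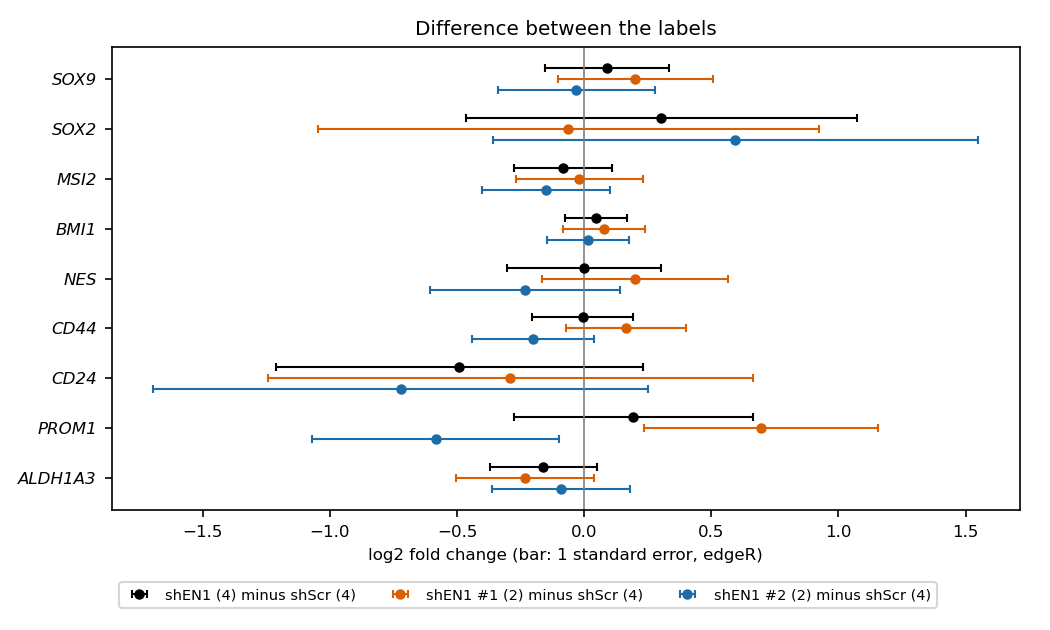
Log2 fold change of the 9 tested markers (x axis, points, bars of 1 standard error from edgeR) for all 4 shEN1 libraries and for each construct's 2 libraries, each minus the 4 shScr libraries. The pooled values lie between -0.49 for *CD24* and 0.30 for *SOX2*, and *PROM1* has opposite signs for the constructs.

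Each construct was also set against the same 4 shScr libraries, so the values share their controls. For shEN1 #1, 94 genes had an unadjusted p below 0.05 (0.656%), with 0 of the 9 markers, and 0 genes passed after adjustment. For shEN1 #2 these were 43 genes (0.3%), 0 markers and 0 genes. *PROM1* had the largest values of opposite sign, at 0.70 on the log2 scale (SE 0.46) for shEN1 #1 and -0.58 (0.48) for shEN1 #2. *CD44* was 0.17 (0.24) and -0.20 (0.24), and *NES* 0.20 (0.37) and -0.23 (0.37). *SOX2* was -0.06 (0.99) and 0.59 (0.96), and *SOX9* 0.20 (0.31) and -0.03 (0.31). *CD24* was negative for both, at -0.29 (0.95) and -0.72 (0.97), as was *ALDH1A3* at -0.23 (0.27) and -0.09 (0.27).

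The constructs were compared with each other directly. Among 153 genes with an unadjusted p below 0.05 (1.07%), *PROM1* was the only one of the 9 markers, where shEN1 #2 minus shEN1 #1 was -1.28 on the log2 scale (SE 0.55, edgeR unadjusted p = 0.0476 and adjusted p = 1.00). It did not pass the correction over all genes, as 0 genes did. With shEN1 #2 replicate 1 left out, the *PROM1* difference was -0.94, and with shScr replicate 4 left out as well it was -0.91. Both left-out libraries were the lowest for *PROM1* and were chosen after seeing the data. These fits leave shEN1 #2 with 1 library, whose spread is taken from the other groups, so no test is given for them. Of the shEN1 #2 libraries, 9.60 CPM came from the one that stood apart and 17.3 CPM from the other, against 39.3 and 25.98 CPM in shEN1 #1.

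The spread between libraries was wide for some markers and narrow for others. The highest library was more than 2 times the lowest for 5 of the 9 tested markers and for 35.8% of tested genes. The median ratio of highest to lowest was 2.103 over the markers, from 1.32 for *BMI1* to 11.2 for *SOX2*, and 1.69 over all tested genes. *CD24* reached 10.9 and *PROM1* 5.22. The same was seen inside the labels, with a median ratio of 2.06 over the markers within shScr against 1.53 over all genes, and 1.93 against 1.503 within shEN1. Without shScr replicate 4 and shEN1 #2 replicate 1, 4 of the 9 markers exceeded 2-fold, with a median ratio of 1.83 against 1.497 over all genes, and *SOX2* was at 4.88. Since the markers are only 9, these medians are descriptions and were not tested.

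Extreme values of 6 markers fell to the pair of libraries that stood apart. These libraries, shScr replicate 4 and shEN1 #2 replicate 1, were the lowest 2 libraries for *SOX9*, *CD44*, *CD24*, *PROM1* and *ALDH1A3* and the highest 2 for *SOX2*, which makes 6 of 9 markers against 38.1% of all tested genes. In that pair the log2 CPM minus the 8-library mean was -1.58 and -1.84 for *CD24*, -1.35 and -0.998 for *PROM1*, and 1.56 and 1.68 for *SOX2*. shScr replicate 3 and shEN1 #1 replicate 1 were the highest 2 for *PROM1* and *NES*, 2 of 9 markers against 13.9% of tested genes, and other pairs of libraries also held 2 markers (*CD44* with *BMI1*, and *MSI2* with *BMI1*). What sets these libraries apart was not tested.

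**Figure D4:**
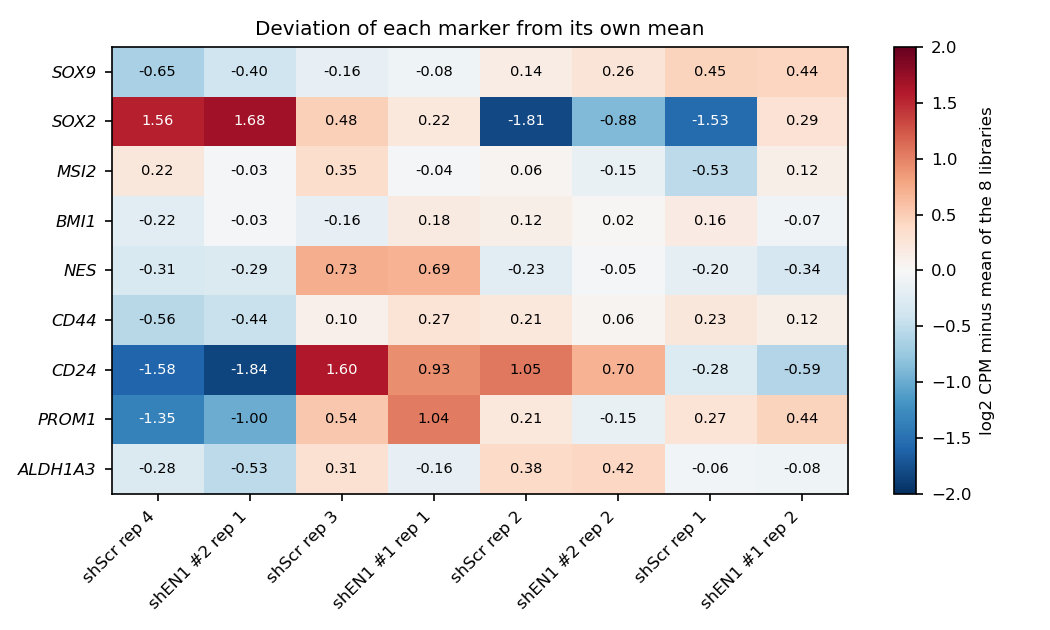
Log2 CPM of the 9 tested markers minus each marker's own mean over 8 libraries (colour and printed value), with libraries in columns ordered to place the near pairs side by side. In the columns of shScr replicate 4 and shEN1 #2 replicate 1, *SOX2* is at 1.56 and 1.68 while *CD24* and *PROM1* are at -0.998 or below.

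The root-mean-square difference over the 9 markers was taken as the distance between 2 libraries. The nearest library carried the other label for all 8 libraries. This was not particular to the markers. Over all 14333 tested genes the nearest library also carried the other label, except for shEN1 #1 replicate 2, nearest to shEN1 #2 replicate 2. In 6 of 8 cases the nearest library over the markers was also the nearest over all tested genes. shScr replicate 4 and shEN1 #2 replicate 1 were closest, at 0.222 log2 units, followed by shScr replicate 2 with shEN1 #2 replicate 2 at 0.342 and shScr replicate 3 with shEN1 #1 replicate 1 at 0.380. Each of these was the nearest of the other in both directions. The 12 pairs within a label were 0.522 to 1.53 apart (median 0.940) and the 16 pairs across labels 0.222 to 1.57 (median 0.834). The farthest pair was shScr replicate 2 and shEN1 #2 replicate 1.

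**Figure D5:**
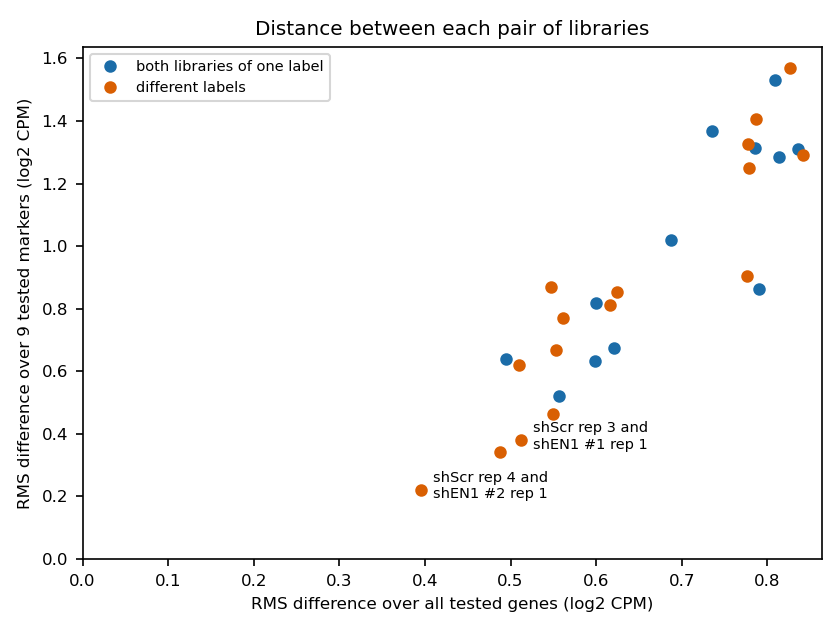
Root-mean-square difference in log2 CPM for each of the 28 pairs of libraries over all 14333 tested genes (x axis) and over the 9 tested markers (y axis), coloured by whether the pair has the same label. Pairs across labels take the lowest place, at 0.222 over the markers, and also the highest, at 1.57.

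Genes that work with each marker were then followed as lists, in which edgeR called 0 of 96 tested genes after adjustment and 1, *RBP4*, without it, against 0.307% of all tested genes. Of 24 SOX family and pluripotency genes, 10 passed the filter and 6 (*SOX1*, *SOX3*, *SOX11*, *SOX14*, *SOX17* and *NANOG*) were at 0 counts in every library. The 10 had a median log2 fold change of 0.07, with *MYC* at the highest level (132 ± 26.8 CPM under shScr, 137 ± 24.03 under shEN1, SD, n = 4). *SALL4* (0.70, standard error 0.62) and *SOX12* (-0.17, 0.31) held the extremes. *SALL4* rests on 2 to 20 counts and lay at 0.37 without shScr replicate 3 and at 1.36 without shScr replicate 2. *SOX2* was thus detected without the pluripotency factor *NANOG*. Other factors of this list were detected, among them *POU5F1* (26 to 105 counts) and *KLF4* (12.3 to 38.6 CPM).

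For *CD44*, 17 of 18 genes of hyaluronan synthesis, breakdown and of the CD44 complex passed the filter, with a median log2 fold change of -0.02. Ezrin (*EZR*), which links CD44 to actin, was the most abundant at 585 ± 93.0 CPM under shScr and 577 ± 49.0 CPM under shEN1 (SD, n = 4). The hyaluronan synthase *HAS3* was at 0.20 (standard error 0.22), the hyaluronan-degrading *CEMIP* at -0.26 (0.53), and the synthase *HAS1* was at 0 counts throughout.

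Around the aldehyde dehydrogenases, 13 of 17 family members passed, with a median log2 fold change of -0.06. *ALDH3A2*, the fatty aldehyde enzyme, was the most abundant, from 93.8 to 253 CPM over the libraries, below *ALDH1A3* in mean CPM under both labels. *ALDH1A2*, the third retinaldehyde dehydrogenase of the subfamily, was at 0 counts in every library, so *ALDH1A3* held nearly all counts of the 3. *ALDH6A1* was at -0.30 (standard error 0.22) and *ALDH5A1* at 0.07 (0.58). In the retinoic acid pathway 15 of 20 genes passed, with a median of -0.14. Among them *RBP4*, the retinol carrier, was 2.16 ± 0.529 CPM under shScr and 1.26 ± 0.334 CPM under shEN1 (SD, n = 4), a log2 fold change of -0.78 (standard error 0.34, unadjusted p = 0.0452, adjusted p = 1.00 from edgeR). The ranges of the labels did not overlap for *RBP4*, as for 0.419% of tested genes. Its unadjusted edgeR p was 0.05 or above in 7 of 8 fits with single libraries left out (0.0307 to 0.122) and in 11 of 19 alternatives in all. The receptor *RXRA* was at -0.14 (0.18) and *CYP26B1*, which degrades retinoic acid, at 0.30 (0.37).

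For *BMI1*, 19 of 21 genes of PRC1 and its targets passed, with a median log2 fold change of 0.02. *PHC2* was the most abundant (245 ± 84.5 CPM under shScr, 250 ± 80.3 CPM under shEN1, SD, n = 4). *RYBP*, a subunit of noncanonical PRC1, was at 0.20 (0.13) and the chromobox gene *CBX7* at -0.24 (0.19). The catalytic subunit *RNF2* had 862 to 1138 counts, but its paralog *RING1*, at 33176277 to 33180499 on chromosome 6, had 0 to 4. *RING1* lies in the major histocompatibility region, where 67.5% of 166 protein-coding genes (29000000 to 34000000) had at most 10 counts in any library, against 27.7% of 808 on the rest of the chromosome. Whether the counts of *RING1* reflect its transcript level was not tested.

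Of 7 Musashi and partner genes, 5 passed, with a median of -0.03. *IGF2BP3* was the most abundant, from 278 to 465 CPM, *ELAVL1* was at 0.05 (0.11) and *NUMBL* at -0.10 (0.21). Of 9 filament partners of nestin, *VIM* (0.17, standard error 0.44) and *SYNM* (0.01, 0.29) passed. *VIM* did not share the pattern of *NES*: it was lowest at 575 CPM in shScr replicate 3, where *NES* was highest. Of 17 other stem cell markers 15 passed, with a median of -0.02, among them *ITGB1* at 2161 ± 320 CPM under shScr, *CXCR4* at 0.49 (0.64) and *LGR5* at -0.40 (0.83).

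For the 5 markers whose highest library exceeded the lowest more than 2-fold, the genes with the most similar profile over the 8 libraries were found by the root-mean-square difference of mean-centred log2 CPM. Nearest to *SOX9* were *AP1S3* (0.0961), *THRB* (0.0995) and *GCLC* (0.1001). Nearest to *NES* were *CDK4* (0.0938), *ISG15* (0.112) and *IFIT2* (0.113). *PROM1* was closest to *CD68* (0.136), *TINAG* (0.169) and *SEMA3A* (0.181). *CD24* was closest to *RELN* (0.167), *CA12* (0.181) and *SELP* (0.286), and *SOX2* to *ADAMTS17* (0.209), *CELF5* (0.272) and *COL12A1* (0.307). All points share the same 8 libraries, and *RELN* and *ADAMTS17* were below 1 CPM in each.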

How the data were processed

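For each of 8 libraries the authors deposited raw counts per gene, as whole numbers without normalization. Per the paper's methods and the labels, HISAT2 placed read pairs on hg19 and featureCounts counted them. The labels also name mm9, but the gene numbers are human. Annotation and strand setting are not given in the sources used here. Among counts of 1 to 20, 68.3% to 72.4% were even, against 49.3% to 50.5% above 100, so the mates of a read pair may have been counted separately, and intervals cover counting error only. Of 25702 gene numbers, 23696 matched a symbol. Positions are from GENCODE lifted to GRCh37.

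Groups came from sample titles, with a shEN1 title read as construct and replicate. Nothing says that libraries came from separate cultures, so p-values measure the spread between these samples, which may be technical. Genes were filtered (filterByExpr, minimum count 10), scaled by TMM (0.962 to 1.07) and tested with edgeR 4.0.16 (glmQLFTest, robust) in R 4.3.3, with Benjamini-Hochberg adjustment at 0.05. A fit of 3 groups gave the construct comparisons. Alternatives used DESeq2 1.42.0, limma-voom (limma 3.58.1), other scalings and filters, a replicate block, and left-out libraries. Leaving out pairs of libraries, and the fits of *PROM1* between constructs without them, were chosen after seeing the data. No pair of libraries agreed within sampling noise (chi-square per gene at least 10.6).

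The markers and lists were chosen with earlier results of these data known. Named genes were the 10 markers, *EN1*, overlapping genes, in each list the called genes or else those of highest mean, largest and smallest change, and 3 nearest genes per variable marker. *KRT7*, *KRT8*, *RING1*, *RNF2*, *POU5F1* and *KLF4*, the paralogs, genes at 0 counts and genes called in an alternative were named after their values were seen.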

Additional observations from a re-analysis of the deposited data

Results flagged for a closer look

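*NES* was 19.1 CPM in shScr replicate 3, far from the other 3 shScr libraries (9.26 to 10.003 CPM). *ALDH1A1* was 0.203 CPM in shEN1 #2 replicate 1, from 8 counts, while the other 3 shEN1 libraries had 0 counts. Both were marked because the gap to the next library, divided by the range of the label, passed Dixon's 95% critical value for 4 samples. Of 22 groups examined 2 were marked, where chance alone gives about 1.1 if values are normally spread without ties. The *ALDH1A1* values have ties at 0 counts, so the gap equalled the range whatever the remaining library held. That mark therefore gives no information on how far this library lies from the others.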

How the results depend on the processing

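No setting called a marker or a gene of a companion list, and the lowest adjusted p of 26 named genes over 492 values was 1.00; 435 values kept their sign and 57 reversed. Over all genes, shEN1 against shScr gave 0 calls with edgeR, 2 with DESeq2 (*VAMP7* and gene number 100507676), 1 with the replicate block, 1 without both libraries that stand apart and 0 to 1 when single libraries were left out (1 without shScr replicate 4); the single gene was *VAMP7*. Without adjustment the count was 44. For shEN1 #1 it was 3 with DESeq2 (*EIF3CL* besides these), 1 with the compared libraries only (gene number 100507676), and 0 to 1 with single libraries left out (*EIF3CL* without shEN1 #1 replicate 2, where the lone library is assumed to vary like the other groups, and gene number 100507676 without shEN1 #2 replicate 1). For shEN1 #2, and between the constructs, it was 0 to 0.

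Replicate numbers were not taken as pairs: deviations of same-numbered libraries correlated at 0.0089, -0.38, 0.19 and 0.32. So few correlations cannot settle whether any samples were paired. Replicates 3 and 4 exist under shScr alone, so the block sets only shScr replicates 1 and 2 against shEN1. It gave 271 genes at an unadjusted p below 0.05, with 1 marker, *SOX2*, at 2.13 (edgeR unadjusted p = 0.0137, adjusted p = 1.00). The replicate block gave log2 fold changes of -0.26 for *SOX9*, 0.26 for *NES*, 0.20 for *MSI2*, -0.11 for *BMI1*, 0.33 for *SOX12* and 0.13 for *NUMBL*, each of opposite sign. Other reversals were *CD44* 0.0039 and *NES* 0.0078 and *LGR5* 0.16 with limma-voom; *CD44* 0.0026 and *NES* 0.012 without a filter; *NES* 0.0051 with DESeq2 or its size factors; *ALDH5A1* -0.054 in 3 groups; *SYNM* -0.0024 by library size only; *BMI1* -0.0024 without both libraries that stand apart; and *NES* 0.024, *MSI2* 0.033, *BMI1* -0.053 and *CEMIP* 0.10 without shScr replicate 3 and shEN1 #1 replicate 1. With single libraries left out, signs reversed in the ranges *SOX9* -0.074 to 0.28, *SOX2* -0.35 to 1.19, *CD44* -0.16 to 0.12, *CD24* -0.87 to 0.050, *PROM1* -0.19 to 0.45, *NES* -0.29 to 0.31, *MSI2* -0.23 to 0.026, *BMI1* -0.017 to 0.11, *SOX12* -0.36 to 0.19, *CEMIP* -0.65 to 0.076, *ALDH5A1* -0.64 to 0.76, *CYP26B1* -0.021 to 0.72, *NUMBL* -0.21 to 0.049, *VIM* -0.12 to 0.48, *SYNM* -0.19 to 0.34, *CXCR4* -0.19 to 0.88 and *LGR5* -0.78 to 0.046. The causes were not tested. Depth limits *ALDH1A1* and *SOX2*, which rest on few counts.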
